A study of Mus musculus with 2 samples.

Results

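The genes described are those of the cytosolic ribosome, taken by name: annotated genes whose symbol begins with Rpl or Rps and a number (or Rplp and a number), leaving out the Rps6k kinases and every symbol containing -ps. The rule found 87 of the 15631 annotated genes with reads in the series. Of these, 86 had reads in replicate 1 and 87 in replicate 2. They comprise 46 genes of the large (60S) subunit and 30 of the small (40S) subunit, together called the 76 core genes. The other members are 7 paralogues of core genes and 4 further name matches (Rpl37rt, Rps3a2, Rps12l1 and Rps19bp1). Rps19bp1 matches by name only, because it encodes a binding partner of Rps19 and no ribosomal protein. The rule misses Rpsa, Fau and Rack1, among others, which encode ribosomal proteins or a ribosome-bound protein under other names.

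Total RNA of gastrocnemius, the large calf muscle, was read as long reads in 2 libraries of 2 µg RNA each, labelled biological replicates 1 and 2. Both came from male B6CASTF1/J mice aged 10 days, first-generation hybrids of C57BL/6 and CAST mice, with no treatment and no control group. The labels name separate tissue samples but the same donor identifier for both libraries, so p-values measure only the difference between these libraries. Replicate 1 held 1145490 mouse reads and replicate 2 held 941841. The 6 fibre markers (Acta1, Ckm, Atp2a1, Mylpf, Tnnc2 and Myh4) took 26.1% and 25.9% of the reads, so the tissue label had its markers. Between replicate 1 and replicate 2, summed fibroblast markers went from 19773 to 11976 CPM (reads per 1000000 mouse reads). Most of this sum was Col3a1 (10116 to 6082 CPM) and Col1a1 (7947 to 4216 CPM). Col1a2 and Pdgfra were also lower in replicate 2. Dcn was higher there (512 to 611 CPM) and Lum nearly unchanged (123 to 125 CPM), so these markers did not fall together. Summed red cell markers went from 409 to 853 CPM and summed Schwann cell markers from 1701 to 1300 CPM. In a bulk sample, fewer cells of a type and less RNA per cell cannot be told apart.

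Each cytosolic ribosome holds about equal numbers of each of its proteins, joined to ribosomal RNA, and most of these proteins come from a single gene. Their mRNAs are known as TOP mRNAs: they begin with a C followed by a run of pyrimidines (C or T), through which the mTOR pathway and the RNA-binding protein Larp1 control their translation. Striated muscle is known for Rpl3l, a paralogue that can take the place of Rpl3 near the peptidyl transferase centre. Ribosomal protein genes are also known for the large number of processed pseudogenes, intronless copies of their mRNAs inserted elsewhere in the genome.

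The TOP run was visible at part of the annotated start sites. RefSeq promoter windows (GRCm38.p6, the mm10 build) were found for 56 of the 76 core genes, in 66 windows. A C at the start base followed by 4 pyrimidines, read on the gene's own strand, was present in 19.7% of these 66 windows, against 2.51% of all 32851 windows and in 0 of 74 windows of mitochondrial ribosomal protein genes. When the same 5 letters could begin within 10 bases on either side of the start, the shares were 54.5% of core windows, 30.7% of all windows and 41.9% of mitochondrial ribosomal protein windows. The windows below cover 18 bases before the start and 12 from it, with capitals for the pyrimidine run from the start base. The first 3 are the most abundant core genes with the run at the annotated start. Rpl3l is shown for contrast, and its window has no run at the start. Rpl35 lies at chr2:39005120-39005149 (-), Rpl14 at chr9:120571499-120571528 (+), Rps6 at chr4:86857356-86857385 (-) and Rpl3l at chr17:24727808-24727837 (+).
Rpl35: agtcggccccgccctttcCTCTTTCTCTCg
Rpl14: gcagggcgggccctctctCTTCTCgctgag
Rps6: gttaagcggaagtcgggcCTCTTTTTCgtg
Rpl3l: gctgagtgttctagctctgtcatttgacct

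Core ribosomal protein genes together took 1.22% of mouse reads in replicate 1 (13929 reads, 95% Wilson interval 1.20% to 1.24%) and 1.27% in replicate 2 (12007 reads, 1.25% to 1.30%), a mean of 1.25% ± 0.0416 (SD, n = 2). Intervals cover counting error only. Each long read was counted once whatever its length, so CPM was not divided by transcript length. The annotated length is given where genes are set side by side. Whether RNAs of different length were read equally well was not tested. The median core gene had 131 CPM, against 8.42 CPM for all annotated genes with reads. None of the core genes was among the 20 most abundant genes of the muscle, 2 were among the first 100 and 14 among the first 500. Levels of the 76 core genes ran in closely similar order in both libraries (across genes, Pearson r = 0.966 and Spearman rho = 0.949 on log2 CPM, n = 76 genes, which are not independent replicates). The levels were far from equal: the highest core gene had 183 times the mean CPM of the lowest.

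Among large subunit genes, the stalk protein gene Rplp0 (P0, anchor of the stalk that recruits elongation factors) was highest. It had 1213 reads in replicate 1 and 881 in replicate 2, or 997 ± 87.4 CPM, with a leading model of 1358 nt. Its stalk partners were lower: Rplp1 had 213 and 126 reads and Rplp2 had 101 and 105 reads. Rpl4, a protein that lines the exit tunnel, had 719 and 536 reads (598 ± 41.4 CPM, 1538 nt). Rplp0 lay above Rpl4 in both libraries, and Rpl4 above the genes that follow. Rpl13 had 487 and 416 reads, Rpl41, with the shortest coding sequence of the set at 75 nt, had 384 and 398, and Rpl6 had 395 and 346. Rpl3, a protein of the peptidyl transferase region, had 367 and 345 reads (343 ± 32.5 CPM), and Rpl35, at the mouth of the exit tunnel, had 287 and 407 (341 ± 128 CPM). The means from Rpl41 down to Rpl35 differed by less than the SD of Rpl41 between libraries (61.8 CPM).

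The small subunit genes were more alike. Rps4x, the X-linked S4 gene, led with 408 and 301 reads (338 ± 25.9 CPM, 975 nt). Rps14, a protein of the platform of the small subunit, came next with 284 and 289 reads (277 ± 41.7 CPM, 597 nt). The small subunit median was 137 CPM and the large subunit median 118 CPM, whereas the upper quartile was 218 CPM for the large subunit and 153 CPM for the small. Large subunit genes, 46 of the 76, held 67.6% of core reads in replicate 1 (95% Wilson interval 66.8% to 68.4%) and 68.2% in replicate 2 (67.4% to 69.1%). Fisher's exact test did not call the difference between libraries (two-sided p = 0.274). The first 10 core genes held 38.9% and 40.1% of core reads. Coding length had a weak positive relation with level across 75 core genes (Spearman rho = 0.438, Pearson r = 0.231 on log2 values, a description over genes).

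At the lower end stood Rpl17 with 4 and 7 reads, Rpl10 with 7 and 5, Rps12 with 19 and 9, Rpl21 with 12 and 15, and Rpl30 with 25 and 13. Each codes for a structural protein of its subunit, and that of Rpl10 is among the last to join the 60S particle in the cytoplasm. Rpl17 averaged 5.46 ± 2.79 CPM and Rpl10 5.71 ± 0.567 CPM. For 4 of these 5 genes most reads of their sequence were assigned elsewhere, as the copies described further on show.

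**Figure D1:**
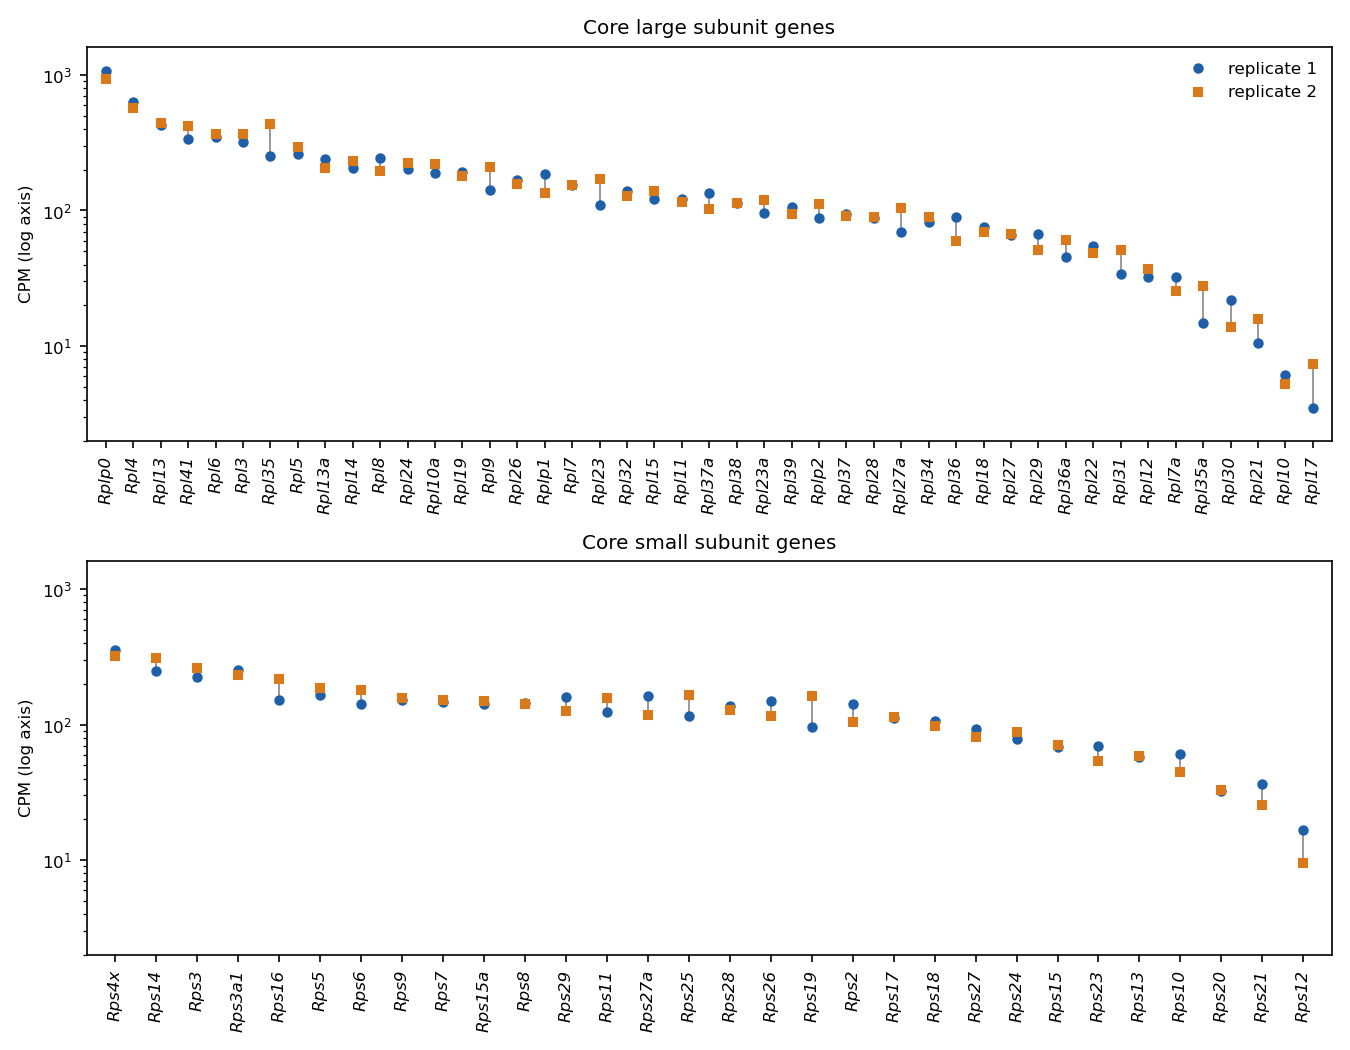
CPM on a log axis for core genes of the large subunit (upper panel) and the small subunit (lower panel) whose values are reported here, ordered by mean; circles are replicate 1, squares replicate 2 and lines join the pair. Rplp0 stands at the top, and Rpl10 and Rpl17 lie below 10 CPM in both libraries.

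The muscle paralogue Rpl3l ranked 4 among the 87 members. It had 531 reads in replicate 1 and 413 in replicate 2 (451 ± 17.7 CPM), above Rpl3 in each library. The gene lies at chr17:24727820-24736143 on the plus strand and Rpl3 at chr15:80077791-80091868 on the minus strand. Rpl3l held 59.1% of the reads of the pair in replicate 1 (Clopper-Pearson 95% interval 55.8% to 62.4%) and 54.5% in replicate 2 (50.9% to 58.1%), so both intervals lay above 50%. The libraries differed by less than Fisher's exact test could call (two-sided p = 0.0585, adjusted p = 0.127 over 7 pairs). The share depended on how reads were counted. With annotated transcripts alone it was 53.1% in replicate 1 and 47.3% in replicate 2 (mean 50.2%), so Rpl3 led in replicate 2. The annotated mRNA held 76.3% and 73.4% of the reads of Rpl3l, and 96.7% and 97.7% of those of Rpl3. Rpl3 also has intronless copies, which held 179 reads in replicate 1 and 173 in replicate 2. When these were counted with Rpl3, the share of Rpl3l was 49.3% in replicate 1 (46.3% to 52.3%) and 44.4% in replicate 2 (41.1% to 47.6%). The mean was then 46.8% ± 3.50 (SD, n = 2), so which of the genes led depended on the copies and on the models counted. The libraries were not called different (two-sided Fisher's exact p = 0.0281, adjusted p = 0.0983 over the 7 pairs).

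Rpl3l was read mostly as its annotated mRNA of 10 exons, Rpl3l-202, with 405 and 303 reads. A model of 9 exons without the first intron held 77 and 69 reads, or 14.5% and 16.7% of the gene. It begins inside that intron, at chr17 position 24728174, and runs unspliced into the second exon. Rarer models spliced a first exon other than that of Rpl3l-202 to that second exon. The one that extends the annotated first exon to a later donor had 6 and 13 reads. The one that begins at 24728174, classed as a new combination of known splice sites, had 6 and 5.

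The other paralogues ranged from most of their pair to almost none of it. Rpl36al, a retained copy of Rpl36a with the same coding length of 318 nt, held 65.8% of its pair in replicate 1 and 60.7% in replicate 2 (100 and 88 reads). Rpl22l1, the paralogue of Rpl22, held 43.2% and 56.6% (48 and 60 reads), with Rpl22 at 63 and 46 reads. None of the Rpl22 reads was on an annotated model with a coding sequence, so this pair does not compare coding mRNAs. Of the Rpl22l1 reads, 97.9% and 98.3% were on annotated models. Rps27l, a paralogue induced by p53 in other settings, held 29.6% and 44.1% (45 and 60 reads). This was the pair with the smallest p (two-sided Fisher p = 0.0140, adjusted p = 0.0982), and it did not pass. Rpl7l1 held 31.4% and 27.4% of its pair with Rpl7 (80 and 55 reads), and Rps27rt held 27.7% and 26.2% of its pair with Rps27 (41 and 27 reads). Rps27rt is itself a copy of Rps27, with no mismatch over 341 aligned bases, and both Rps27 pairs share the reads of Rps27. Rps4l was the lowest, with 13 and 3 reads beside 408 and 301 of Rps4x (3.09% and 0.987%). None of the 7 pairs was called between libraries. Rpl10l and Rpl39l, paralogues known from testis, had no read listed in either library.

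**Figure D2:**
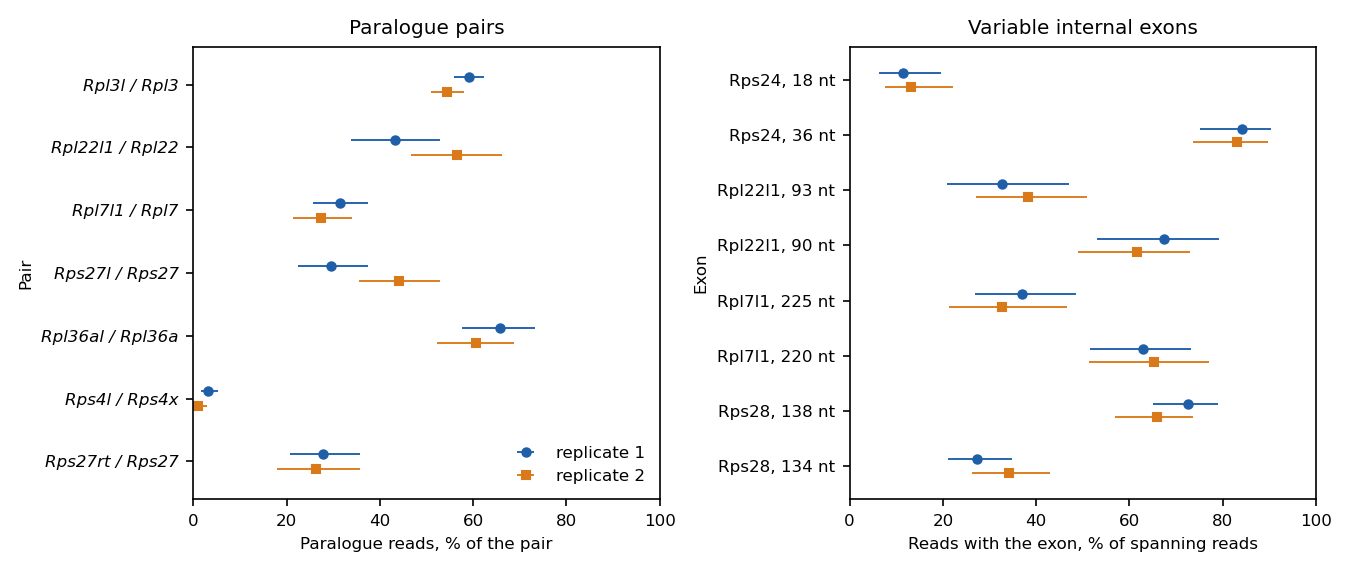
Left, reads of each paralogue as a percent of the reads of its pair, with Clopper-Pearson 95% intervals. Right, reads containing each variable internal exon as a percent of reads that span it, with Wilson 95% intervals; circles are replicate 1 and squares replicate 2. The intervals of the libraries overlap for all 8 exons and for all 7 pairs, and both intervals of Rpl3l lie above 50%.

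Many reads with ribosomal protein sequence were assigned to intronless copies. A copy was taken as an annotated pseudogene or single-exon gene that aligned to a core transcript at 90% identity or more over at least 80% of its length; this measure was chosen after levels were seen. Such copies numbered 139, of 66 core genes, and 130 are annotated as pseudogenes. They held 2892 reads in replicate 1 and 2493 in replicate 2. This was 17.2% of all reads on core genes and their copies in each library (Wilson 95% intervals 16.6% to 17.8% and 16.6% to 17.8%). Of the copies, 90 had reads in both libraries, 90 were at least 99% identical to their gene and 23 were identical over the aligned length. Nearly all their reads (99.7% in each library) had no intron. The files hold no read sequences, so whether a read came from the copy or from the spliced mRNA of the gene was not tested.

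Copies took most reads of 11 core genes in both libraries. For Rpl17 the share on copies was 95.3% in replicate 1 (95% Wilson interval 88.6% to 98.2%) and 91.7% in replicate 2 (83.8% to 95.9%). Rpl10 followed with 93.6% and 92.8%, all on Rpl10-ps3 (102 and 64 reads), a single-exon gene at chr9:50344201-50344968 that is annotated as protein-coding and has no mismatch to Rpl10 over 740 aligned bases. For Rpl21 the share was 93.4% and 91.2% over 5 copies, and for Rpl35a it was 87.4% and 77.0% over 7. Rpl30, Rps2, Rpl31, Rpl7a, Rps13, Rpl37 and Rps6 lay between 51.6% and 75.0%. The Rpl37 copy is Rpl37rt (115 and 116 reads), itself a member by name. In 30 core genes copies held over 10% of reads in each library, and 10 core genes had no reads on copies.

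Counted with their copies, the core genes were less unequal. Rpl21 went from 13.2 ± 3.85 to 171 ± 15.4 CPM, Rpl10 from 5.71 ± 0.567 to 84.2 ± 15.5 CPM and Rpl17 from 5.46 ± 2.79 to 82.1 ± 9.98 CPM. The highest core gene then had 51.8 times the level of the lowest, which was Rps12 at 19.7 CPM, in place of 183 times. The share of mouse reads on the set rose from 1.25% to 1.50%. Rps2, which codes for a protein at the mRNA entry of the small subunit, went from rank 41 to rank 12 of the 76.

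**Figure D3:**
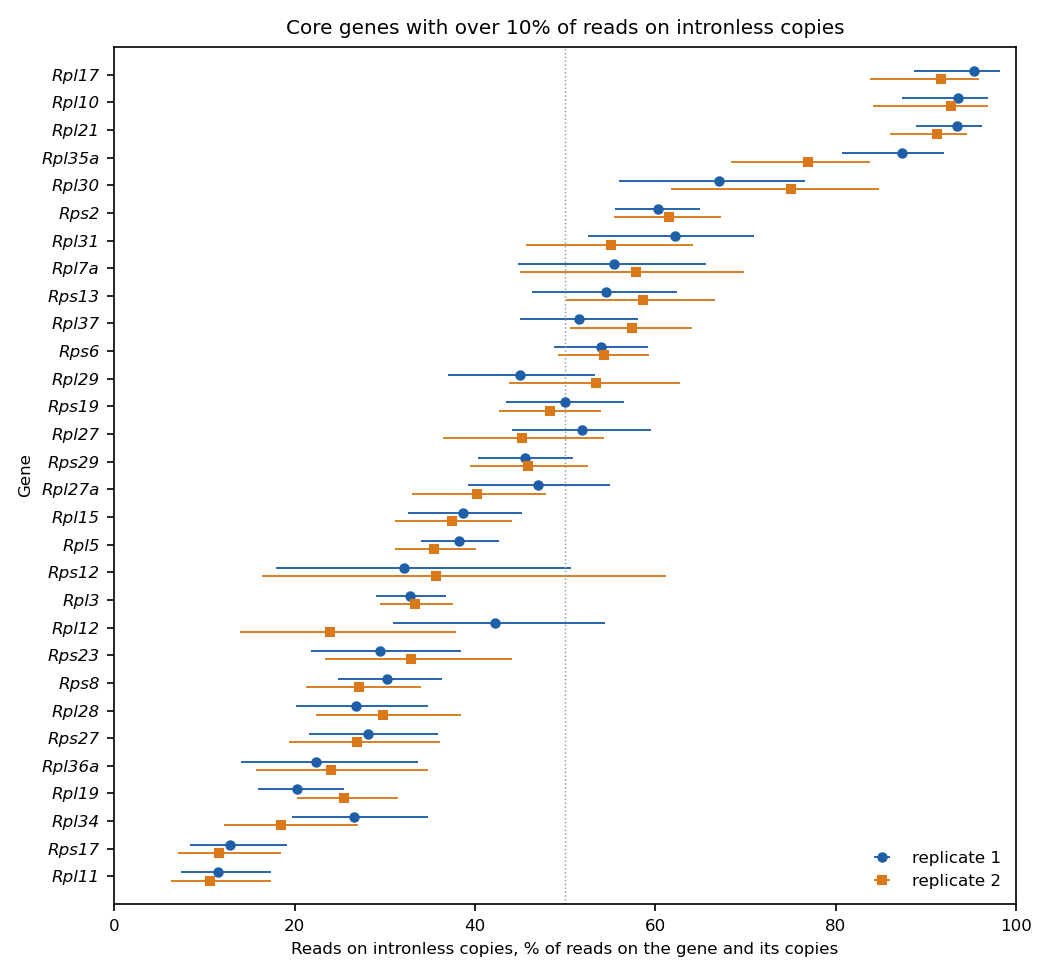
Percent of the reads on a core gene and its intronless copies that were assigned to the copies, with Wilson 95% intervals, for the 30 core genes over 10% in both libraries (circles replicate 1, squares replicate 2). The dotted line marks 50%; Rpl17, Rpl10 and Rpl21 lie above 90% in both libraries.

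Several of the most read copies differ from their gene by a few bases and others by none. Rps2-ps13 (chrX:52898588-52899469, 221 and 144 reads) has 7 mismatches over 882 aligned bases, Rpl3-ps1 (chrX:13202571-13203780, 178 and 173 reads) has 2 over 1210, and Gm8172, a copy of Rps6 with 166 and 185 reads, has 6 over 750. Gm15500, a copy of Rpl5 with 185 and 152 reads, and Gm14303, a copy of Rps29 with 154 and 101, have none. Rpl21-ps15 (chrX:151215167-151215649), with fewer reads (81 and 62), has 3 mismatches over 483 bases and is a copy of a gene with over 90% of its reads on copies. Windows of 30 coding bases around the first difference are shown for Rps2-ps13, Rpl3-ps1 and Rpl21-ps15, chosen after their values were seen, from GENCODE M21 (mm10), with the differing base in capitals. Positions count from 1 at the A of the start codon, and the gene's base comes first: T60A in Rps2-ps13, C57A in Rpl3-ps1 and T336C in Rpl21-ps15. The gene windows lie at chr17:24720315-24720344 (+), chr15:80082520-80082549 (-) and chr5:146835637-146835666 (+), and the copy windows at chrX:52898627-52898656 (+), chrX:13202608-13202637 (+) and chrX:151215305-151215334 (-).
Rps2: cccgggggcccaggattaggTggccgcggc
Rps2-ps13: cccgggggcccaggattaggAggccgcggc
Rpl3: tccttgggcttcctgcctcgCaagcgcagc
Rpl3-ps1: tccttgggcttcctgcctcgAaagcgcagc
Rpl21: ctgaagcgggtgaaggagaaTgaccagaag
Rpl21-ps15: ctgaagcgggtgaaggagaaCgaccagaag

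The 3 differences shown fall at the third position of their codons. All 7 coding mismatches of Rps2-ps13 (T60A, A84G, T204C, G300A, C444T, C453A and T756C), both of Rpl3-ps1 (C57A and T786C) and all 3 of Rpl21-ps15 (T336C, G378A and T432C) are at the third position. Of the 6 in Gm8172, 5 are at the third position and 1 is at the second. Other copies were counted in the same way. Of the 139 copies, 79 aligned over the whole coding sequence with no gap, and 20 of these had no coding mismatch. In the 24 with 20 or more reads in each library, 43 of 48 mismatches (89.6%) were at the third position, 2 at the first and 3 at the second. In the 55 with fewer reads the third position held 107 of 177 (60.5%). These counts describe copies chosen for their reads, some of which share a gene, and carry no test.

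The core genes were read largely as their annotated transcripts. In replicate 1, 90.4% of core reads (95% Wilson interval 89.9% to 90.9%) were on annotated models, and in replicate 2 88.7% (88.1% to 89.2%). Over all annotated genes the shares were 72.1% and 76.4%. The median core gene had 96.4% and 96.2% of its reads on annotated models, and 59 of the 76 had over 90% in each library, against 33.1% and 39.0% of all genes with 20 or more reads. Models with a new intron held 1.05% and 0.833% of core reads, against 4.82% and 8.15% over all genes. New combinations of known splice sites held 0.431% and 0.283%, against over 5% of all reads in each library.

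What was not annotated was mainly models without the first intron or introns. Reads carrying the last introns of the leading coding mRNA, and not the earlier ones, made up 10.8% of core reads in replicate 1 (95% Wilson interval 10.3% to 11.4%) and 12.9% in replicate 2 (12.3% to 13.5%). The class that the deposited annotation calls suffix, unannotated models of this kind, rose from 7.43% to 9.12% of core reads (Fisher's exact test over 12 class comparisons, adjusted p = 1.69e-06). Over all genes the same class fell from 7.27% to 6.27% (adjusted p = 4.15e-175). A further part sat on annotated models such as Rpl5-204, Rpl8-202, Rps14-203 and Rps27a-201, whose introns are the last introns of the full mRNA. Some of these models keep the first intron unspliced, as Rpl8-202 does, and others begin downstream of it. The files do not give the ends of single reads. A read that keeps an early intron, a read of a late start and a read cut short at its start therefore cannot be told apart.

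Rpl5, Rpl8 and Rpl6 show the forms this took. Rpl5 (chr5:107900502-107909005, plus strand), which binds the 5S ribosomal RNA, had 99 and 83 reads on its full mRNA of 8 exons, Rpl5-201. It had 192 and 188 on Rpl5-204, a model of 3 exons annotated as a retained intron, which gave last-intron reads 66.6% and 69.2% of the gene. With the intron chain of the full mRNA alone, Rpl5 had 87.3 CPM and rank 48 of the core genes, in place of 277 CPM and rank 11. In Rpl8, a protein near the peptidyl transferase centre, last-intron reads were 18.2% and 23.5% of the gene. Rpl6 had a second model of this kind, with 51 and 37 reads; at 1782 nt it is longer than the annotated mRNA of 1270 nt, since it covers the first intron.

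**Figure D4:**
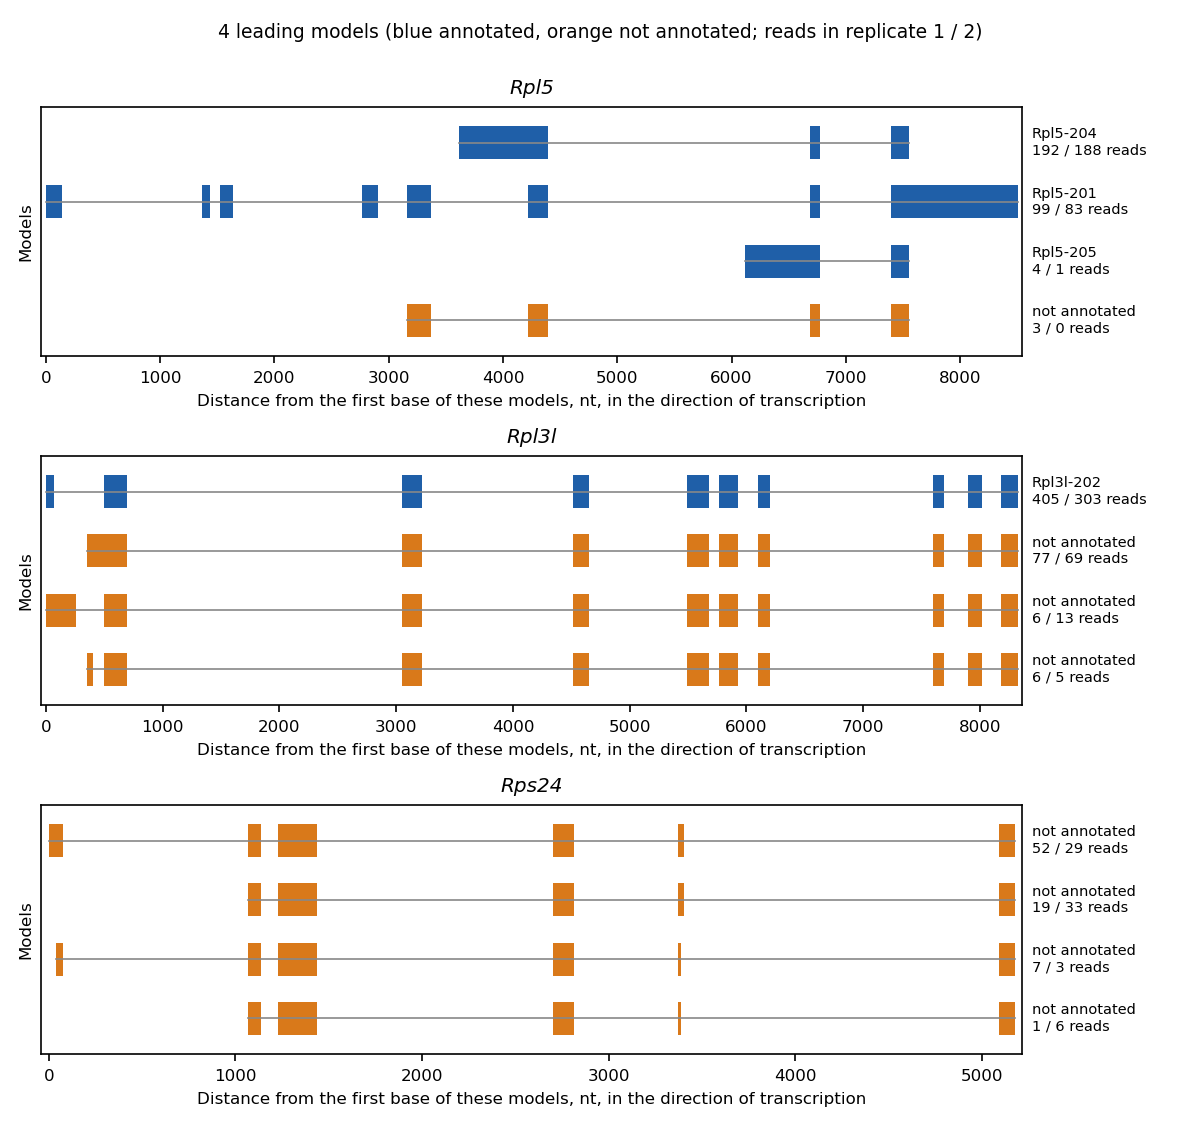
Exon maps of the 4 most read models of Rpl5, Rpl3l and Rps24, drawn in the direction of transcription against distance from the first base of the models shown (nt); boxes are exons, lines introns, blue annotated and orange not annotated, with reads in replicate 1 and 2 at the right. Annotated models carry the annotated ends. The full mRNA of Rpl5, with 99 and 83 reads, has fewer than Rpl5-204, with 192 and 188.

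Alternative internal exons were few. Among 75 members with at least 20 reads spanning an internal exon in each library, 4 genes (5.33%) had an exon included in 5% to 95% of reads in both libraries, against 31.4% of all 4178 genes measured. These shares of genes were not matched for the number of exons. Counted by exon, 8 of 376 were variable in the members and 3028 of 54035 over all genes. The 4 member genes all involve small shifts: Rps24, Rps28, Rpl22l1 and Rpl7l1. None of their 8 exons differed between libraries (Fisher's exact test adjusted over all variable exons; background 0.0661% of 3028 called, smallest unadjusted p 0.237, so 0 at an unadjusted p under 0.05).

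Rps24 codes for a small subunit protein whose 3′ end is known to be spliced in a tissue-specific way. Its leading model by mean share was not annotated: 52 reads in replicate 1 and 29 in replicate 2 held 6 exons, with a small exon of 36 nt before the last (chr14:24494052-24494087). The annotation has an 18-nt exon with the same start, ending at 24494069. The 36-nt exon was in 84.1% of 88 spanning reads in replicate 1 (95% Wilson interval 75.0% to 90.3%) and 83.1% of 83 in replicate 2 (73.7% to 89.7%), and the 18-nt exon in 11.4% and 13.3%. A model with the 36-nt exon but without the first intron had 19 and 33 reads and led in replicate 2, and the 18-nt form with all 5 introns had 7 and 3. The annotated Rps24-210, with neither small exon, had 2 and 1. The sequences show how the forms differ. In the short form the capitals are the 18-nt exon, whose first 3 bases are coding and next 3 are the stop codon in Rps24-205, and the gt after it is its donor. In the long form the capitals are the 18 added bases, which begin at that gt and end just before the next gt; they follow the stop codon. A second annotated small exon of 20 nt (chr14:24495430-24495449), shown last, was in 0 of 88 and 0 of 82 spanning reads, which allows up to 3.41% and 3.66%. The windows are chr14:24494049-24494075, chr14:24494062-24494091 and chr14:24495425-24495454 (+), from GENCODE M21.
Rps24 18-nt exon: cagAAATGAAATACCTAGCAGgtactg
Rps24 added bases: cctagcagGTACTGCCATTGGGCACGgtgt
Rps24 20-nt exon: ttcagTGAGTGGAGATTGGATACAGgtata

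The other shifts were of 3 to 5 bases. Rpl22l1 used acceptors 3 bases apart in its second exon: the longer form (93 nt) was in 32.6% of 46 reads and 38.3% of 60, and the 3 bases are one codon. Rps28, a small subunit protein near the mRNA exit, used donors 4 bases apart in an internal exon. The longer form (138 nt) was in 72.6% of 157 reads and 65.8% of 120, and the 4 bases lie outside the coding sequence. Rpl7l1 used donors 5 bases apart: the annotated shorter exon (220 nt) was in 63.0% of 73 and 65.3% of 49 reads, and an unannotated longer one (225 nt) in 37.0% and 32.7%. The intron after the longer exon begins with gc. The first exon of Rpl38 (not an internal exon) also had donors 17 bases apart. The shorter form, Rpl38-204, had 86 and 70 reads, and the longer form, Rpl38-201, had 38 and 32 (29.0% and 29.9% of the gene); the 17 bases hold no coding base. Capitals mark the bases present in the longer form only; the first 4 lines are spliced mRNA and the Rpl7l1 line is genomic (chr17:46778038-46778061, minus strand), with the intron in lower case after the capitals. The mRNA windows span chr3:28805532-28806514 (+) for Rpl22l1, chr17:33823105-33823208 (-) for Rps28 and chr11:114668604-114668786 (+) for Rpl38, introns left out.
Rpl22l1-201: aacatggcgccgCAGaaagacaagaag
Rpl22l1-206: aacatggcgccgaaagacaagaag
Rps28-205: atcttgcagctgGTGGggttctggatat
Rpl38-201: atcgctGTGAGTGTGCTGGGCAGgtgcgg
Rpl7l1: gcaggagcagGTGAGgcgagtgtg

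Other unannotated spliced models found in both libraries had few reads. Rpl21, low on its own locus, was led by a model of 7 exons with an extra first intron (4 and 7 reads of 12 and 15). Rps19 had a model with another first donor (5 and 4 reads), Rpl13 with another first acceptor (5 and 4), Rplp2 with another last intron (4 and 3) and Rpl3 a model with 4 and 2 reads. Each was under 5% of its gene except that of Rpl21.

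Between the libraries no ribosomal protein gene was called. Of the 87 members, 83 had the 20 reads over both libraries that the test required (Rps4l, Rpl10, Rpl17 and Rps12l1 did not). Reads were compared by the exact binomial test, two-sided and given the total of each gene, with Benjamini-Hochberg adjustment over 7516 genes. A call needed a difference of 2-fold or more and an adjusted p below 0.05. It was met by 0 of 83 members, against 2.75% of all genes, with 0 higher in replicate 2 (background 0.838%) and 0 lower (background 1.92%). The unadjusted p was below 0.05 in 24 of 83 (28.9%), against 20.3% of all genes. These shares were not matched for reads, and the test finds smaller differences in genes with more reads. Of the 83 members, 71 had 100 or more reads over both libraries, against 2666 of the 7516 genes. With no fold minimum 9 members passed, against a background of 9.11%. Only counting error enters this test. Of these, Rpl35 had the highest fold, with 251 CPM in replicate 1 and 432 CPM in replicate 2 (1.72-fold higher, adjusted p = 1.02e-10). Rps19, the S19 protein gene mutated in Diamond-Blackfan anaemia, was 1.68-fold higher in replicate 2 (96.0 and 161 CPM, adjusted p = 0.000831). Rpl23, Rpl9, Rps16, Rps25 and Rpl41 were also higher in replicate 2, by 1.26-fold to 1.57-fold. Rplp1 was the single one lower, 1.39-fold (186 and 134 CPM, adjusted p = 0.0384). All 5 red cell markers were higher in replicate 2 too, 2 of them called (Hba-a1 and Hbb-bt), and their part in the result was not tested.

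The median log2 ratio of replicate 2 to replicate 1 was 0.03 over the 83 members and -0.01 over all genes tested. Length gives another reading. Over all genes the median ratio was lower with greater mean length of a gene's models, from 0.35 up to 750 nt (320 genes) to -0.37 over 5000 nt (384 genes). The 35 core genes up to 750 nt had a median of 0.01 and the 21 core genes of 751 to 1000 nt one of -0.05, where all genes of that length had 0.28. Set against genes of their own length, the members' median was -0.25, in the opposite direction, again with 0 called (background 1.72% of 7516 genes).

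**Figure D5:**
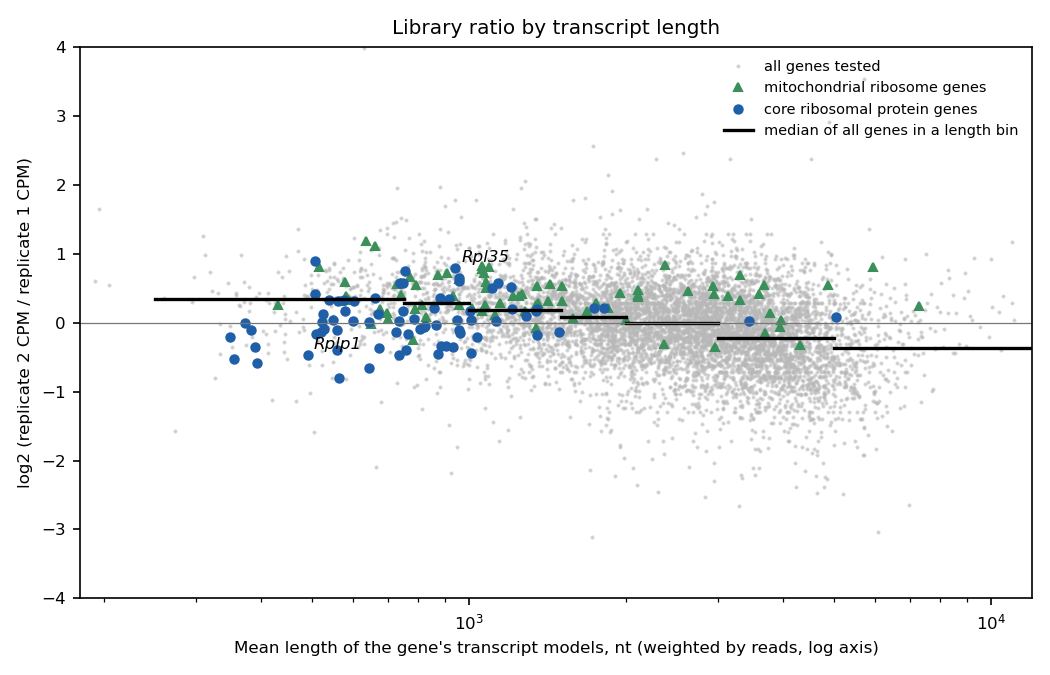
Log2 ratio of replicate 2 CPM to replicate 1 CPM against the read-weighted mean length of a gene's models in nt (log axis), for all genes tested (grey), mitochondrial ribosomal protein genes (triangles) and core ribosomal protein genes (circles); black lines are medians of all genes in a length bin, and genes beyond -4 or 4 lie outside the axis. Short genes have medians above 0 (0.35 up to 750 nt) while core genes of that length centre on 0.01.

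Use of transcript models moved in few members. Fisher's exact test of each model's share of its gene called 5 of 195 member models at an adjusted p under 0.05 and 10 points (background 1.11% of 14263), in Rpl39, Rps25 and Rps2, and 6 with any difference (background 2.37%). For Rpl39, the full mRNA Rpl39-201 went from 85.1% of 121 reads to 56.2% of 89, and a single-exon model of the last exon went from 14.9% to 43.8% (adjusted p = 0.000398 for each). In Rps25, a model of the last 3 exons went from 0 of 132 to 18 of 155 (adjusted p = 0.000869), and Rps25-201 went from 98.5% to 86.5% (adjusted p = 0.00768). In Rps2, Rps2-201, which keeps the first intron of the leading Rps2-208, went from 6.21% to 20.4% (adjusted p = 0.0455). With models of the deposited class genomic left out, 4 of 191 member models were called (background 0.714% of 13028). They were in Rpl39 and Rps25, and the call in Rps2 was lost. In all 3 genes the model with fewer introns had a larger share in replicate 2 than in replicate 1, but still less than the fuller model.

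Genes that work with the ribosome were measured from lists. Over all genes tested, 0.838% were called higher in replicate 2 and 1.92% lower. Of the ribosomal protein or ribosome-bound genes outside the name rule, 0 were called; Rpsa, a small subunit protein, had 160 and 95 reads, Rack1, a scaffold on the small subunit, 143 and 102, and Fau, a ubiquitin-like and S30 fusion gene, 84 and 50. Of 6 elongation factor genes, 1 was called, lower in replicate 2: Eef2, the translocation factor, had 588 and 283 CPM (log2 ratio -1.05, adjusted p = 2.2e-23), while Eef1g had 787 and 697 CPM. Of 12 other TOP mRNA genes tested, 0 were called, and Tpt1, a classic TOP mRNA, had 313 and 304 CPM. Of 15 genes of the mTOR and TOP control list, 2 were called lower (Mlst8, with 25 and 4 reads, and Larp4b, with 39 and 13), and Cnbp, which binds TOP mRNAs, had 1018 and 1329 CPM. Of 26 ribosome biogenesis genes 0 were called, at a median log2 ratio of 0.09; nucleolin (Ncl) had 137 and 106 CPM. Of 77 mitochondrial ribosomal protein genes, 2 were called higher in replicate 2 (Mrpl42, with 113 and 245 CPM, and Mrps18c, with 19.2 and 43.5 CPM). The median log2 ratio of this list was 0.38. All genes up to 750 nt had a median of 0.35, and those of 751 to 1000 nt had 0.28. The list was not set against genes of its own length. The summed level of the mitochondrial ribosomal protein genes was 4169 and 5419 CPM, below the 12160 and 12748 CPM of the cytosolic core genes.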

How the data were processed

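Long-read RNA libraries of gastrocnemius from 2 samples were used. The authors deposited raw read counts per transcript model, listing models with at least 1 read, and a transcript annotation with exons and model classes. Per the file headers and deposited notes, reads were mapped to mm10 with GENCODE M21, and the annotations carry TALON attributes. The mm10 sequence is that of C57BL/6J, 1 of the parent strains. No aligner name or version is given in the sources used here. Pipeline documents 3.1 (replicate 1) and 3.0 (replicate 2) are cited per the labels, so document and sample cannot be told apart.

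Reads were summed per gene, and CPM is per 1000000 mouse reads, spike-ins left out. Annotated models were matched by identifier and unannotated ones by intron chain. The exact binomial test took genes reaching 20 reads in total, adjusted by Benjamini-Hochberg over all genes. Model shares and exons were compared with Fisher's exact test where each library had at least 20 reads. Copies were found with blastn 2.17.0 (e-value 1e-10). Values were computed in Python 3.11.15 with scipy 1.17.1, and scaling alternatives with edgeR 4.0.16 and DESeq2 1.42.0. Scripts were tested on simulated data. Some genes are counted in totals but not reported here.

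The members and gene lists were chosen with earlier results of these data known. The rule for naming took paralogue pairs, the 10 highest and 5 lowest core genes, called members, second models of 10% or more, unannotated leading models, the 10 most read unannotated spliced models, members with variable exons and up to 4 genes of each other list. Copies, the genes that passed with no fold minimum, and the genes with called models were named after their values were seen.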

Additional observations from a re-analysis of the deposited data

How the results depend on the processing

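No paired analysis was possible because both libraries form 1 group. Of 63 alternatives 41 stayed within the spread or call of the value reported, 21 moved it and 1 added calls. For shares judged by the SD over 2 libraries, leaving out 1 library always falls within that SD. Those alternatives are among the 41 and could not have moved. The share of mouse reads on core genes was 1.53% with annotated transcripts only, 1.34% with all genes of the name rule, 1.31% with ribosomal genes outside the name rule added, 1.50% with intronless copies counted and 1.04% with the chain of the leading coding model only. The large subunit share was 66.5% with annotated transcripts, 67.3% with copies and 65.9% with the leading chain. The share of Rpl3l was 50.2%, 46.8% and 50.3% under the same settings. The annotated share was 96.3% as a median over genes. The share on copies was 16.2% at 99% identity. The median core level was 131 CPM, 146 CPM with copies, 110 CPM with the leading chain and 122 to 123 CPM in single libraries. The median log2 ratio was 0.03 as reported, -0.065 with annotated transcripts and -0.25 with a null share per length bin, so its sign changed. The count of called members was 0 in all alternatives except any fold, which gave 9 (background 9.11%). In the other alternatives 1% to 3.09% of all genes tested were called. Variable exons were found in 2 genes at 50 or more spanning reads and in 2 with annotated transcripts only; leaving out either library gave 4 and 5. Leaving out a library gave 1.22% to 1.27% for the core share, 67.6% to 68.2% for the large subunit and 54.5% to 59.1% for Rpl3l. TMM and DESeq2 size factors differed from read totals by -0.01 (log2, replicate 2 over replicate 1). Settings with copies, other identities or the leading chain were chosen after seeing the data. Depth limits the rarest models: a count of 0 allows 3 reads, or 2.62 and 3.19 CPM.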

Other observations

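The name rule set aside 10 ribosomal S6 kinase genes, which held 246 reads in replicate 1 and 178 in replicate 2 (215 and 189 CPM). Rps6kb1, the S6 kinase downstream of mTOR, had 64 and 47 reads, Rps6kb2 had 37 and 31, and Rps6ka2 had 62 and 36. It also set aside 61 genes with -ps in their symbol, with 1396 and 1211 reads (1219 and 1286 CPM), more than any single core gene.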
